A study of Mus musculus with 194 samples.

Results

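The genes described here carry glucose through glycolysis or respond to low oxygen, and are a list of 33 symbols of those functions, all of which were among the 23420 gene names measured. Expression was read in single mouse cells that had grown for 2 generations in a microfluidic array of traps, so that sisters, cousins and the hours since the last division were recorded for most cells. The 2 groups were primary CD8+ T-cells from spleens of C57BL/6J mice, activated for 30 h with antibodies against CD3 and CD28 and kept with interleukin-2, and L1210 cells, a lymphocytic leukemia line from a DBA mouse. The labels do not tie the T-cells to single mice, L1210 is a single line, and cell type cannot be told apart from strain, culture and day. Without doublets and without libraries that detected fewer than 1000 genes, 97 T-cell libraries in 34 lineages and 81 L1210 libraries in 26 lineages remained.

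Glycolysis breaks glucose down to pyruvate in the cytosol. Glucose transporters bring the sugar in, hexokinases and phosphofructokinases commit it, the enzymes from aldolase to pyruvate kinase make ATP, and lactate dehydrogenase reduces pyruvate to lactate, which leaves through monocarboxylate transporters. Many of these steps have isozymes from separate genes. The transcription factor HIF-1 drives many of the same genes when oxygen falls: its alpha subunit, encoded by Hif1a, is marked for destruction by the prolyl hydroxylases Egln1 and Egln3 while oxygen is present. Activated T-cells and leukemia cells are both known for high rates of glycolysis.

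Values are TPM, a level of transcripts per length scaled to the same total in every library, so that they are shares of a library and not amounts per cell, and they do not keep the number of reads behind each value. Differences and their tests were computed on ln(TPM + 1), with lineages as the replicates. The p-values therefore measure the spread between lineages, and the study used fewer mice than there were T-cell lineages, so that lineages share mice that the labels do not name. Lineages also cannot be told apart from traps or device runs. Retained cells had 2639 to 10902 detected genes in T-cells (median 6861) and 1610 to 10452 in L1210 cells (median 8401). The ribosomal RNA precursor Rn45s took 0.984 to 41.8% of the TPM in T-cells and 11.4 to 79.3% in L1210 cells. In 2 L1210 libraries it took most of the total, 79.3% in L1210_8 with 2717 detected genes and 55.5% in L1210_15 with 1610. Cd3e and Vpreb1 followed the labels. Cd3e, a subunit of the T-cell receptor complex, was above 0 TPM in 97 of 97 T-cells and 0 of 81 L1210 cells. Vpreb1, a part of the surrogate light chain of early B-lineage cells, was above 0 in 0 and 78. Summed over 6 B-lineage markers, T-cells had 0 to 283 TPM, chiefly Cd79b, which was above 0 in 47 cells. Summed over 7 T-cell markers, L1210 cells had 0 to 130 TPM. Of these 7, Thy1 was above 0 in 46 L1210 cells (median 2.82, up to 91.9 TPM), with a median of 262 TPM in T-cells. Cd8b1 was above 0 in 23 L1210 cells, Lck in 16, Cd8a in 10 and Cd3d in 8. Of the markers of other cells, Lyz2 was above 0 in 36 L1210 cells, up to 110 TPM, and its part in the results was not tested.

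Of the 33 genes, 31 passed a filter and were tested between the types, having lain above 1 on the ln(TPM + 1) scale in over 10% of cells of a type, 29 of them in T-cells and 28 in L1210 cells. The aldolase gene Aldoc and the enolase gene Eno2 passed in neither type. Aldoc was above 0 TPM in 3 T-cells and 4 L1210 cells, and Eno2 in 12 and 7.

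The promoters of the 3 genes that were more alike among related T-cells, described further on, are shown with the letters that HIF-1 binds. RefSeq (GRCm38.p6) lists 2 start windows for Ldha, 1 for Hk2 and 3 for Aldoa, and for each gene the window with the most matches is printed (for Aldoa, the first listed of 2 with 1 match each), from 250 bases before the start up to the start. Capitals mark ACGTG or GCGTG, the core of its binding site, on either strand, where a palindrome CACGTG counts as 2 overlapping matches.
Ldha, chr7:46845554-46845803, plus strand: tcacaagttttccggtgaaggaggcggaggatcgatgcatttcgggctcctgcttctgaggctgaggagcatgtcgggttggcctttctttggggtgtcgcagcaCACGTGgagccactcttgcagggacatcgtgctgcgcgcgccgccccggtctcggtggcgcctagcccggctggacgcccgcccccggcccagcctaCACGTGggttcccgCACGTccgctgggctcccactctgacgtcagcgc
Hk2, chr6:82774455-82774704, minus strand: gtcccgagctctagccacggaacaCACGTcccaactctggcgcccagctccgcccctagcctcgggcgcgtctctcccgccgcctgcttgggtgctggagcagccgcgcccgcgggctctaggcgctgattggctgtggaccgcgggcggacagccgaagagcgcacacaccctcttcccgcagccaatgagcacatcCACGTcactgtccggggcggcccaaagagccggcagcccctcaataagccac
Aldoa, chr7:126799255-126799504, minus strand: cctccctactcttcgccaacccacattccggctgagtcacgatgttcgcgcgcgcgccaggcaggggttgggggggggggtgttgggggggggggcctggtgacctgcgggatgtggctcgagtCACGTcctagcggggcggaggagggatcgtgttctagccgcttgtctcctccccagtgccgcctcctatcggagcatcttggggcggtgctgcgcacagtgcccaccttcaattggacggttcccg
The Ldha window held 5 matches in 3 stretches, 2 of them the palindrome, Hk2 held 2 and Aldoa 1. No exon of the GENCODE annotation lies in these windows, and those of Ldha and Aldoa lie within the span of the gene, downstream of a more distant annotated start. Of 44 windows listed for 30 of the 33 genes, 35 held at least 1 match, or 79.5%, against 38.6% of all 32851 windows in the table. Windows of the same gene are counted separately. By gene, 27 of 30 held a match, against 41.5% of 27025 genes. The genes were chosen for glycolysis and the hypoxia response, so a higher share is no independent result. Binding was not measured. No window was listed for Slc2a3, Ndrg1 and Bnip3l. Beside Ldha, the windows with most matches were those of Bnip3 with 5 and of Slc16a1 and Ankrd37 with 4 each.

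The first question was which of the genes differ between the cell types. Of the 31 genes tested, 22 differed at an adjusted p under 0.05 (limma, Benjamini-Hochberg over 11371 genes), 8 higher in T-cells and 14 higher in L1210 cells. This share of 71% stands beside 63.6% of all genes tested, with 13.5% of all genes called higher in T-cells and 50.1% higher in L1210 cells. The median difference, T-cells minus L1210, was -0.01 over the 31 genes and -0.41 over all genes, so most genes read lower in T-cells, which also had fewer detected genes.

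**Figure D1:**
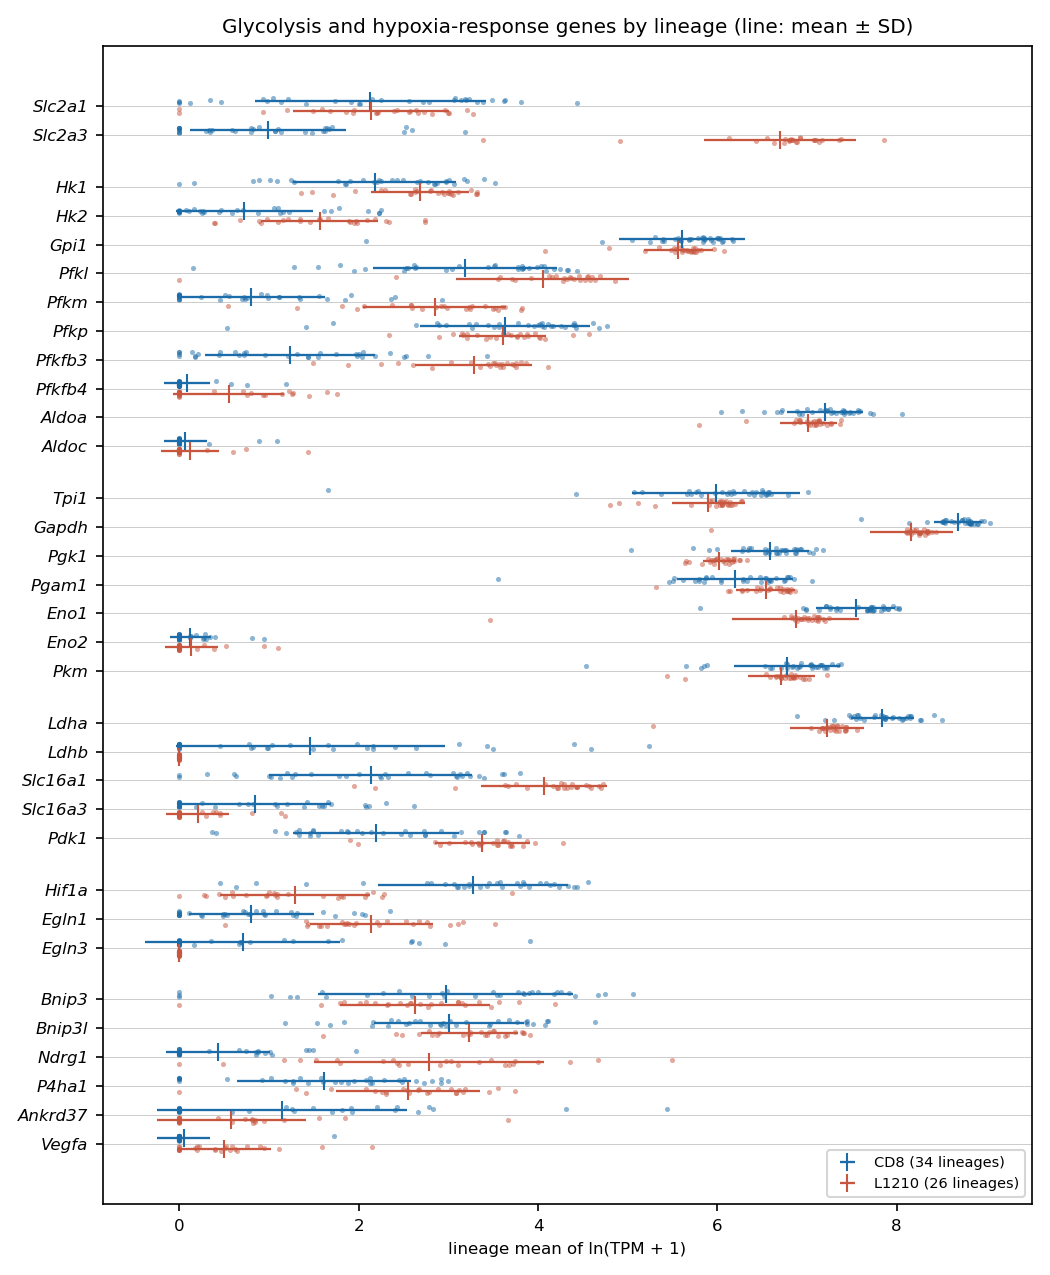
Lineage means of ln(TPM + 1) for the 33 genes, in rows by role, for 34 T-cell lineages (blue) and 26 L1210 lineages (red), where each point is a lineage and the lines give mean ± SD. Slc2a3 shows the widest gap, and Gapdh has the highest level in both types.

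Of the 31 genes, the glucose transporter gene Slc2a3 had the largest difference. Slc2a3, which encodes the high-affinity glucose transporter GLUT3, had 0 to 53.3 TPM in T-cells with a median of 0, and 0 to 2903 TPM in L1210 cells with a median of 946. Of the 81 L1210 cells, 79 lay above every T-cell, and L1210_8, the library with the largest share of Rn45s, was listed at 0. The difference was -5.71 ± 0.22 (SE, 34 and 26 lineages), a 301-fold higher TPM + 1 in L1210 cells (limma, adjusted p = 4.21e-35). The gene lies at chr6:122727809-122801640 on the minus strand (GRCm38, which is mm10). Slc2a1, which encodes the widespread transporter GLUT1, had medians of 12.7 TPM in T-cells (0 to 99.9) and 15.4 in L1210 cells (0 to 40.2), and its difference of -0.01 ± 0.28 (SE) did not pass (limma, adjusted p = 0.983). Slc2a3 therefore made up 96.9% ± 9.58 of the summed TPM of the 2 transporters in L1210 lineages (SD, n = 26) and 29.4% ± 26.5 in the 32 T-cell lineages with a value above 0.

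**Figure D2:**
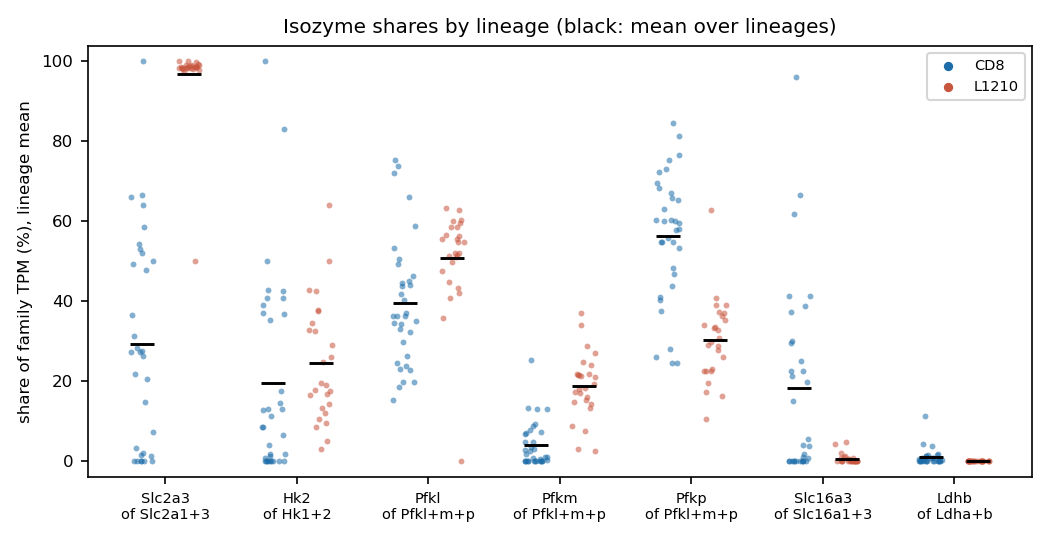
Share of a family's summed TPM taken by the isozyme named, in percent, where each point is the mean of a lineage and the black bar the mean over lineages, for T-cells (blue) and L1210 cells (red). Slc2a3 shares are near 100% in most L1210 lineages, the Pfkp share averages 56.3% in T-cells and 30.3% in L1210 cells, and Ldhb shares stay below 12% in every lineage.

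Both hexokinases, which commit glucose, were higher in L1210 cells. Hk1, the hexokinase of most tissues, had a median of 12.3 TPM in T-cells (0 to 68.4) and 18.7 in L1210 cells (0 to 45). Hk2, the inducible isozyme, had medians of 0 (0 to 13.7) and 3.91 TPM (0 to 42.8), and was above 0 in 47 of 97 and 70 of 81 cells. The differences were -0.51 ± 0.21 for Hk1 and -0.84 ± 0.19 for Hk2 (SE, limma, adjusted p = 0.0293 and 9.56e-05). Hk1 took most of the summed hexokinase TPM in both types, 80.5% ± 24.8 in T-cells and 75.4% ± 15 in L1210 cells (SD over lineages). Gpi1, the isomerase that follows, had medians of 359 and 294 TPM and did not pass (adjusted p = 0.822).

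Phosphofructokinase, the main control point of the pathway, has liver (Pfkl), muscle (Pfkm) and platelet (Pfkp) isozymes. Pfkp led in T-cells, with 56.3% ± 15.9 of the summed TPM, and Pfkl in L1210 cells, with 50.8% ± 12.5 (SD, n = 34 and 26 lineages). Pfkm had a median of 0 TPM in T-cells (0 to 59.5) and 28.1 in L1210 cells (0 to 84.6), and its TPM + 1 was 7.77-fold higher in L1210 cells (difference -2.05 ± 0.21, SE, limma, adjusted p = 4.13e-13). The cells of the types overlapped, and only 6 L1210 cells lay above every T-cell. Pfkl was also higher in L1210 cells, with medians of 74.7 against 36.8 TPM (difference -0.87 ± 0.25, SE, adjusted p = 0.00247), whereas Pfkp had medians of 37.6 and 56.4 TPM and did not pass (adjusted p = 0.922).

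Pfkfb3 and Pfkfb4 encode bifunctional enzymes that make and remove fructose 2,6-bisphosphate, an activator of phosphofructokinase. Pfkfb3 had a median of 1.93 TPM in T-cells (0 to 72.3) and 33.3 in L1210 cells (0 to 112), a 7.71-fold higher TPM + 1 in L1210 cells (difference -2.04 ± 0.22, SE, limma, adjusted p = 1.28e-12). Pfkfb4 was above 0 TPM in 5 of 97 T-cells and 24 of 81 L1210 cells, with medians of 0 in both and a difference of -0.46 ± 0.12 (SE, adjusted p = 0.000516).

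The later steps of the pathway showed the opposite order for several enzymes. Gapdh, which makes the first high-energy intermediate, was the most abundant of the 33 genes in both types, with 1013 to 9937 TPM in T-cells (median 6691) and 68.7 to 5447 in L1210 cells (median 3867). Of the T-cells, 75 of 97 lay above every L1210 cell. The difference was 0.52 ± 0.09 (SE), or 1.68-fold (limma, adjusted p = 1.34e-06). Pgk1, the kinase that makes ATP at the next step, had medians of 827 TPM (97.2 to 1664) and 440 TPM (162 to 734) and was 1.76-fold higher in T-cells (adjusted p = 1.04e-06).

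Pgam1, the mutase between Pgk1 and enolase, went the other way, with medians of 638 TPM in T-cells (12.7 to 1299) and 776 in L1210 cells (86.3 to 1272) and a difference of -0.34 ± 0.14 (SE, limma, adjusted p = 0.0257). Aldoa, Tpi1 and Pkm, which encode aldolase A, triosephosphate isomerase and pyruvate kinase, did not pass (adjusted p = 0.104, 0.714 and 0.681). Aldoa had medians of 1453 TPM in T-cells and 1182 in L1210 cells, Tpi1 518 and 421, and Pkm 1029 and 924.

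Eno1, the main enolase, had medians of 2184 TPM in T-cells (154 to 3914) and 1151 in L1210 cells (0 to 1749), a difference of 0.67 ± 0.14 (SE, limma, adjusted p = 4.25e-05). Its value is uncertain, because the table also lists Gm5506, a near-identical copy named Eno1b, and reads from the pair can be split between them. Gm5506 had a median of 57.8 TPM in T-cells and 648 in L1210 cells. It took a median of 3.0% of the summed TPM of the pair in T-cells and 36.5% in L1210 cells. With the pair summed, medians were 2286 and 1818 TPM and the difference shrank to 0.21 (two-sided permutation test over lineages with 100000 resamples, p = 0.0154). Several other enzymes of the later steps, Gapdh among them, also have near-identical pseudogenes, for which no such sum was made.

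Ldha, the lactate dehydrogenase subunit that favours lactate, had 850 to 5754 TPM in T-cells (median 2558) and 32.7 to 2154 in L1210 cells (median 1501). It was 1.85-fold higher in T-cells (difference 0.62 ± 0.10, SE, limma, adjusted p = 1.26e-07), and 64 of 97 T-cells lay above every L1210 cell. Ldhb, the subunit common in heart, was listed at 0 in all 81 L1210 cells. In T-cells it was above 0 in 41 of 97 cells, up to 187 TPM, with a median of 0 (limma, adjusted p = 5.93e-06, and no fold is given). Even there it made up 0.963% ± 2.07 of the summed TPM of the pair (SD, n = 34 lineages). In the lineage of CD8_38 all 4 cells held Ldhb, at 14.7, 17.5, 25.9 and 155 TPM.

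The exporters of lactate and the brake on pyruvate oxidation differed too. Slc16a1, which encodes the monocarboxylate transporter MCT1, had a median of 11.5 TPM in T-cells (0 to 89) and 75.6 in L1210 cells (0 to 190), a 6.94-fold higher TPM + 1 in L1210 cells (difference -1.94 ± 0.25, SE, limma, adjusted p = 3.94e-10). Slc16a3, which encodes MCT4, an exporter of highly glycolytic cells, had medians of 0 in both types. It was above 0 in 34 of 97 T-cells, up to 67.5 TPM, and in 10 of 81 L1210 cells, up to 4.05 TPM (difference 0.63 ± 0.17, SE, adjusted p = 0.00115). Slc16a3 took 18.3% ± 23.8 of the summed TPM of the exporters in 32 T-cell lineages and 0.618% ± 1.26 in 26 L1210 lineages (SD). Pdk1, a kinase that inactivates pyruvate dehydrogenase, had medians of 9.76 TPM (0 to 78.2) in T-cells and 33.5 (0 to 71.4) in L1210 cells (difference -1.19 ± 0.21, SE, adjusted p = 1.46e-06).

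Summed over the 17 genes from hexokinase to lactate dehydrogenase, the pathway took 1.60% ± 0.375 of the TPM in T-cells and 1.05% ± 0.149 in L1210 cells (SD, n = 34 and 26 lineages). With Rn45s taken out of the total the shares were 2.04% ± 0.423 and 1.35% ± 0.162. Gapdh made up a median of 40.4% of this sum in T-cells and 35.9% in L1210 cells. The sum counts Eno1 but not its copy Gm5506, which had a mean of 145 TPM in T-cells and 650 in L1210 cells.

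In the oxygen-sensing genes, Hif1a had a median of 42.1 TPM in T-cells (0 to 156) and 2.87 in L1210 cells (0 to 128). It was 7.30-fold higher in T-cells (difference 1.99 ± 0.25, SE, limma, adjusted p = 2.41e-10), and the cells of the types overlapped. Egln1, the hydroxylase expressed in most tissues, had medians of 0 (0 to 41.2) and 8.87 TPM (0 to 48.8) and was 3.82-fold higher in L1210 cells (difference -1.34 ± 0.19, SE, adjusted p = 5.06e-09). Egln3, which is itself a known HIF target, was above 0 in 25 of 97 T-cells, up to 80.7 TPM, and listed at 0 in all 81 L1210 cells (adjusted p = 0.00183). The 4 cells of the lineage of CD8_29 had 5.64, 8.25, 12.3 and 37.1 TPM of Egln3, the highest mean of the 16 T-cell lineages with 4 cells.

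Of the remaining hypoxia-response genes, those that passed were higher in L1210 cells, and the others did not pass in either direction. Ndrg1, a stress-responsive gene induced by hypoxia (chr15:66929318-66969640, minus strand), had a median of 0 TPM in T-cells (0 to 75.5) and 26.4 in L1210 cells (0 to 457). Its TPM + 1 was 10.5-fold higher in L1210 cells (difference -2.35 ± 0.24, SE, limma, adjusted p = 2.23e-13), and 18 L1210 cells lay above every T-cell. P4ha1, which hydroxylates collagen, and Vegfa, the angiogenic factor, were also higher in L1210 cells. P4ha1 had medians of 4.78 and 17 TPM (adjusted p = 0.000453), and Vegfa was above 0 in 1 of 97 T-cells and 30 of 81 L1210 cells (adjusted p = 0.000262). Bnip3 and Bnip3l, receptors for the autophagy of mitochondria, and Ankrd37, a HIF target of little-known function, did not pass (adjusted p = 0.321, 0.313 and 0.0787). Their medians were 40.8 and 19.2 TPM for Bnip3, 22.9 and 29.5 for Bnip3l, and 0 in both types for Ankrd37, which reached 500 TPM in a T-cell.

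With the number of detected genes as a covariate, Hk1, Pfkl, Pgam1 and P4ha1 no longer passed (limma, adjusted p = 0.676, 0.455, 0.634 and 0.0515). Leaving out L1210_8 and L1210_15 kept the count of 22 genes.

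Around the 33 genes, lists of 84 further genes of related metabolism and of the hypoxia response were counted, of which 60 were tested between the types. Of 15 tested genes of glycolysis and its branches 3 were higher in T-cells and 5 in L1210 cells, and of 7 genes of the pentose phosphate pathway 0 and 2. Of 11 genes that pass pyruvate to mitochondria 2 and 5 were called, and of 27 further hypoxia-response genes 3 and 15, beside 13.5% of all genes called higher in T-cells and 50.1% in L1210 cells. The medians of the differences were -0.20, -0.27, -0.49 and -0.63, beside -0.41 over all genes. The 5 called genes of lowest adjusted p were all but 1 higher in L1210 cells: the chemokine receptor Cxcr4 (-2.48 ± 0.17, SE), the glycogen synthase Gys1 (-2.25 ± 0.19), the transcriptional co-regulator Cited2 (-2.87 ± 0.25), the enolase copy Eno1b (-3.04 ± 0.33) and, higher in T-cells, the ectonucleotidase Nt5e (1.41 ± 0.19). Vhl, which targets HIF subunits for destruction, and Arnt, their partner, were both called higher in L1210 cells (-1.43 ± 0.21 and -1.16 ± 0.24, SE), and were named after their values were seen.

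The second question was whether cells of a lineage are alike in these genes. For each lineage with at least 2 cells, the mean difference between related cells, regardless of sign, was set against the mean difference of the same cells to those of other lineages. In T-cells, 3 of 29 genes, or 10.3%, were more alike among relatives at an adjusted p under 0.05, beside 2.26% of all 9995 genes: Ldha, Aldoa and Hk2 (limma). At an unadjusted p under 0.05 there were 12, including Tpi1, Pgk1, Eno1, Pkm, Ldhb, Hif1a, Egln3, Bnip3 and Ankrd37, beside 15% of all genes. The measure was below 0 for 27 of 29 genes, with a median of -0.19, beside -0.10 over all genes.

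**Figure D3:**
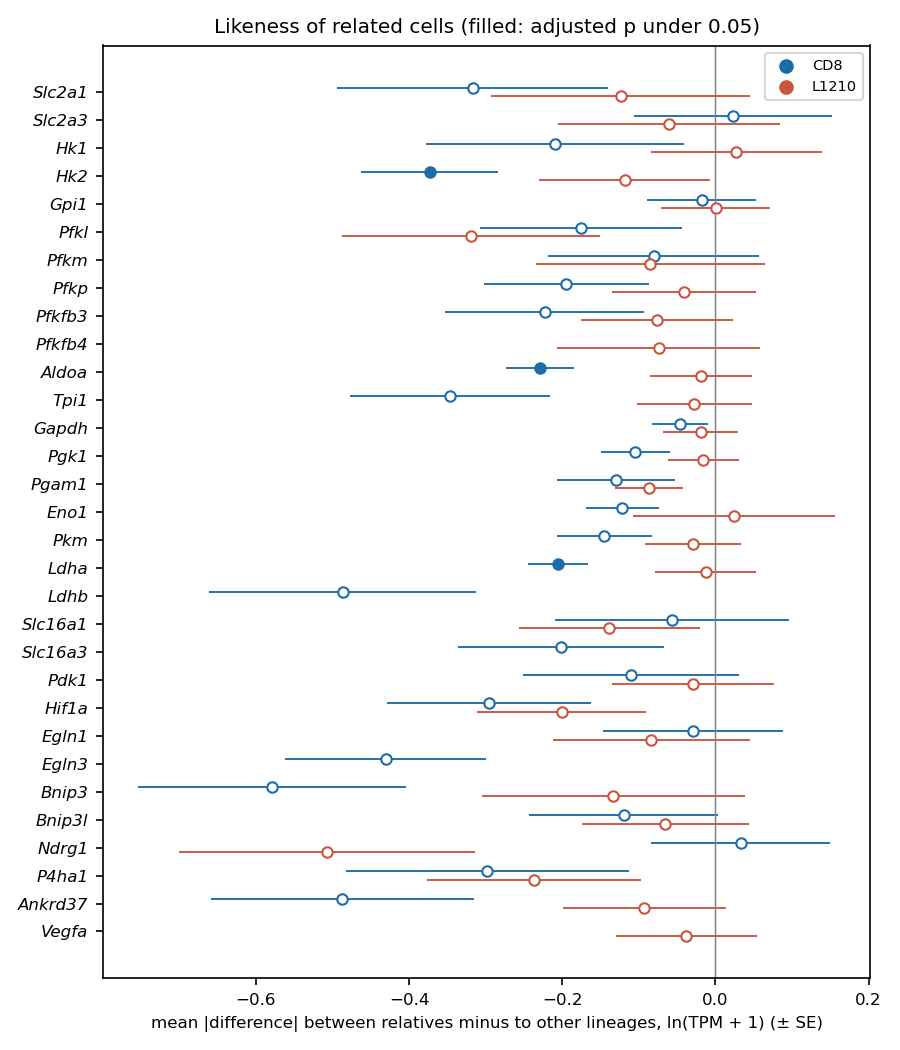
Mean difference between related cells minus mean difference to cells of other lineages, in ln(TPM + 1) ± SE, for T-cells (blue, 27 lineages) and L1210 cells (red, 24 lineages), where filled points passed an adjusted p of 0.05. Values left of 0 mean that relatives were closer, and only Ldha, Aldoa and Hk2 in T-cells are filled.

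For Ldha, related T-cells differed by 0.26 and unrelated cells by 0.47, a gap of -43.7% of the unrelated value (difference -0.21 ± 0.04, SE, limma, adjusted p = 0.00226), and relatives were closer in 23 of 27 lineages. Across the 27 lineages lineage means had an SD of 0.36, and the median SD inside a lineage was 0.17. Among lineages with 4 cells the lowest mean was that of CD8_59, whose cells had 940, 951, 1605 and 2203 TPM of Ldha, and the highest that of CD8_99, with 2403, 3458, 4940 and 5424 TPM. All cells of the second lay above all cells of the first. The share of Rn45s ran from 19.6 to 41.8% in the lineage of CD8_59 and from 5.71 to 22.1% in that of CD8_99. Its part in this contrast was not tested.

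For Aldoa the related and unrelated differences were 0.30 and 0.53, a gap of -43.3% (difference -0.23 ± 0.04, SE, limma, adjusted p = 0.00253, closer in 24 of 27 lineages). The lineage of CD8_99 was again the highest of those with 4 cells, at 1832, 2079, 2331 and 2705 TPM, and that of CD8_65 the lowest, at 481, 559, 722 and 1099 TPM. For Hk2 they were 0.56 and 0.93, a gap of -40.1% (difference -0.37 ± 0.09, SE, adjusted p = 0.0169, closer in 20 of 27 lineages). Hk2 was listed at 0 in all 4 cells of the lineage of CD8_51 and had 6.12, 6.34, 9.58 and 13.7 TPM in that of CD8_21.

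**Figure D4:**
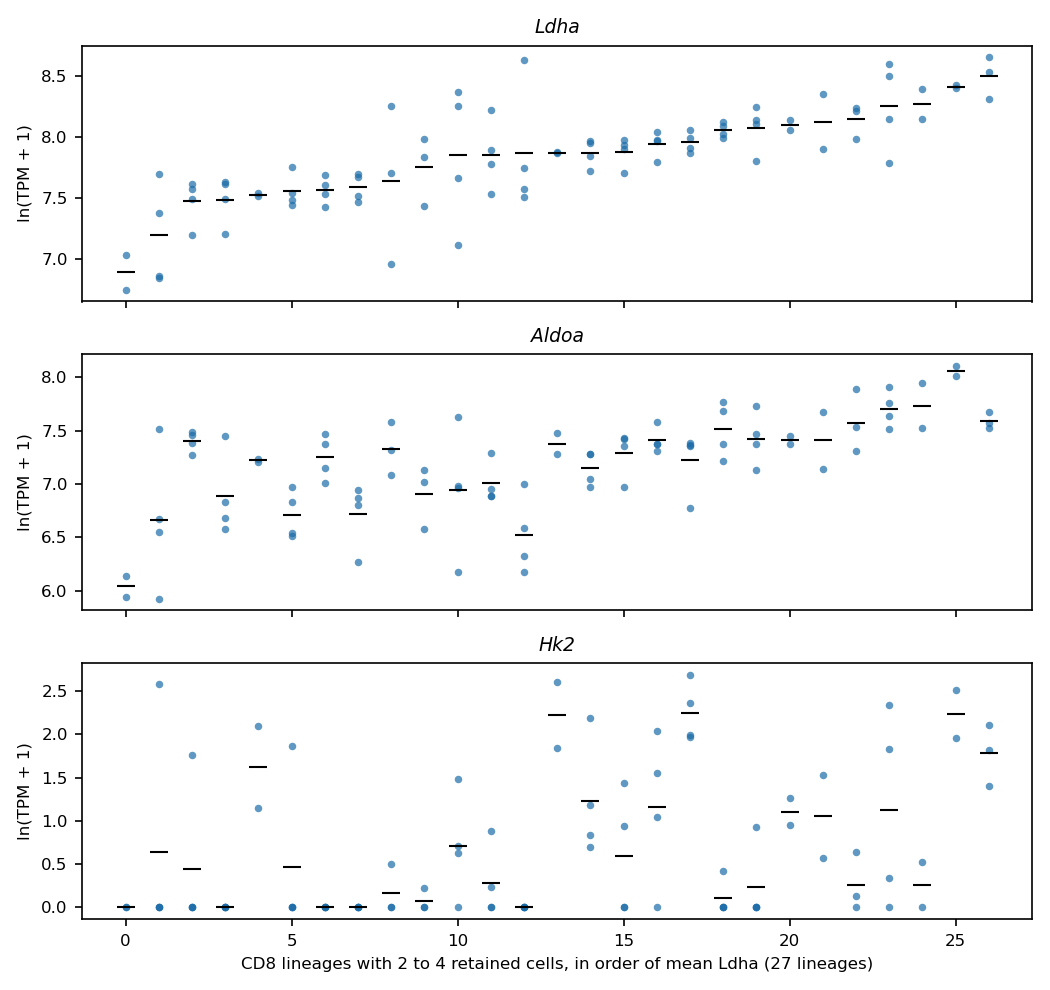
ln(TPM + 1) of Ldha, Aldoa and Hk2 in each T-cell (points) of the 27 lineages with 2 to 4 retained cells, with lineage means as black bars, in order of mean Ldha. Aldoa means run broadly in the order of Ldha, and Hk2 has several lineages in which every cell is listed at 0.

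Sisters and cousins can be set side by side. Over 43 sister pairs, 72 cousin pairs and 4541 unrelated pairs of T-cells, the mean difference was 0.27, 0.29 and 0.46 for Ldha, 0.31, 0.34 and 0.52 for Aldoa, and 0.61, 0.55 and 0.91 for Hk2. These pairs share cells and are given without a test. Bnip3 and Egln3 came nearest among the genes that did not pass, with gaps of -28% and -42% between relatives and unrelated cells (limma, adjusted p = 0.0695 and 0.0749).

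Technical measures were also closer among relatives in both types. In L1210 cells the share of Rn45s differed by 5.34 percentage points between relatives and 6.86 between unrelated cells. The number of detected genes there differed by 1102 and 1788. In T-cells the share of Rn45s differed by 6.49 and 9.67 percentage points, and the number of detected genes by 1344 and 1875. Without Rn45s in the total, Ldha, Aldoa and Hk2 still passed (limma, adjusted p = 0.00856, 0.00762 and 0.0153). With each cell centred on 1933 broadly detected genes none did (adjusted p = 0.0656, 0.121 and 0.188), and with detected genes as a covariate Hk2 did not (0.0827). Relatives had also divided at similar times, such as 5.15 to 5.30 h before release in the lineage of CD8_21. With the slope over hours removed from each gene, 188 of all genes were more alike among related T-cells, beside 226 without that step. Values of Ldha, Aldoa and Hk2 after that step are not given here.

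In L1210 cells 0 of 28 genes passed (limma), beside 0.294% of all 10534 genes, and 1, Ndrg1, had an unadjusted p under 0.05, beside 12.9% of all genes. For Ndrg1 the gap between related and unrelated L1210 cells was -25.9% (difference -0.51 ± 0.19, SE, adjusted p = 0.260), and were closer in 15 of 24 lineages. The 4 cells of the lineage of L1210_34 had 137, 169, 323 and 457 TPM of Ndrg1 and those of L1210_1 had 0, 0, 4.78 and 17.5 TPM. For Ldha, Aldoa and Hk2 the gaps were -3.76%, -4.35% and -10.9% (limma, adjusted p = 0.974, 0.956 and 0.709). Relatives were nonetheless closer in 19, 19 and 17 of 24 lineages. The difference lay furthest above 0 in the lineage of L1210_8 for Ldha (1.51) and in that of L1210_15 for Aldoa (1.15). These are the 2 libraries in which Rn45s took most of the TPM. For Hk2 it did so in the lineage of L1210_77 (1.31). The difference between the cell types in likeness was not tested. Of 58 further genes tested in T-cells 2 passed (limma), beside 2.26% of all genes, and 8 had an unadjusted p under 0.05, beside 15%. The 2 were the cytokine Mif (limma, adjusted p = 0.000424) and the carbonic anhydrase Car12 (adjusted p = 0.0310), both from the hypoxia list, of which 25 genes were tested. In L1210 cells 0 of 55 passed (limma), and 10 had an unadjusted p under 0.05, beside the same 12.9% of all genes.

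Lineage means of the enzymes were compared with each other. In T-cells, for 9 core enzymes (Gpi1, Aldoa, Tpi1, Gapdh, Pgk1, Pgam1, Eno1, Pkm and Ldha) the median Spearman correlation of lineage means was 0.59 over 36 pairs of genes (0.11 to 0.82, n = 34 lineages), beside 0.13 over all pairs of the 9995 genes. In L1210 cells the median was 0.20 (-0.17 to 0.70, n = 26 lineages), beside 0.18 over all pairs. The 9 enzymes were above 0 TPM in at least 96 of 97 T-cells. Pairs over all genes were not matched to them in level or detection. The closest pairs in T-cells were Aldoa with Ldha at 0.82, Pgk1 with Pkm at 0.80 and Aldoa with Tpi1 at 0.79, and in L1210 cells Gapdh with Ldha at 0.70. The 8 hypoxia-response genes Bnip3, Bnip3l, Ndrg1, P4ha1, Ankrd37, Egln3, Egln1 and Pdk1 had a median of 0.03 in T-cells (-0.28 to 0.46), and the 7 of them tested in L1210 cells 0.12. Bnip3 stood closer to Aldoa, at 0.73 in T-cells. These correlations share libraries and their quality: in T-cells the share of Rn45s correlated with Ldha at -0.61, Aldoa at -0.48 and Tpi1 at -0.43, and the number of detected genes with Pkm at 0.69, Pgam1 at 0.63 and Gpi1 at 0.61. Their part in the correlations was not tested.

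The third question was the course over time since division, which ran from 0.5 to 9.48 h in the 94 T-cells with a recorded time and from 0.354 to 12.8 h in the 81 L1210 cells. No gene of the set passed. In T-cells 0 of 29 slopes had an adjusted p under 0.05 (limma on 31 lineage means), beside 0.09% of all genes. In L1210 cells it was 0 of 28, beside 0% of 10534 genes, and for the difference of slopes 0 of 26, beside 0.0109%. At an unadjusted p under 0.05 there were 4 genes in T-cells (Pfkfb3, Tpi1, Slc16a1 and Hif1a), 1 in L1210 cells (Ndrg1) and 3 for the difference (Pfkfb3, Tpi1 and Ndrg1). These are shares near those over all genes, which were 12.9%, 5.58% and 11.7%, and the genes are described below by their values only. Of the further genes listed, 0 of 58 in T-cells, 0 of 55 in L1210 and 0 of 53 for the difference passed (limma), and 6, 2 and 9 had an unadjusted p under 0.05, to be read beside the same shares of all genes.

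**Figure D5:**
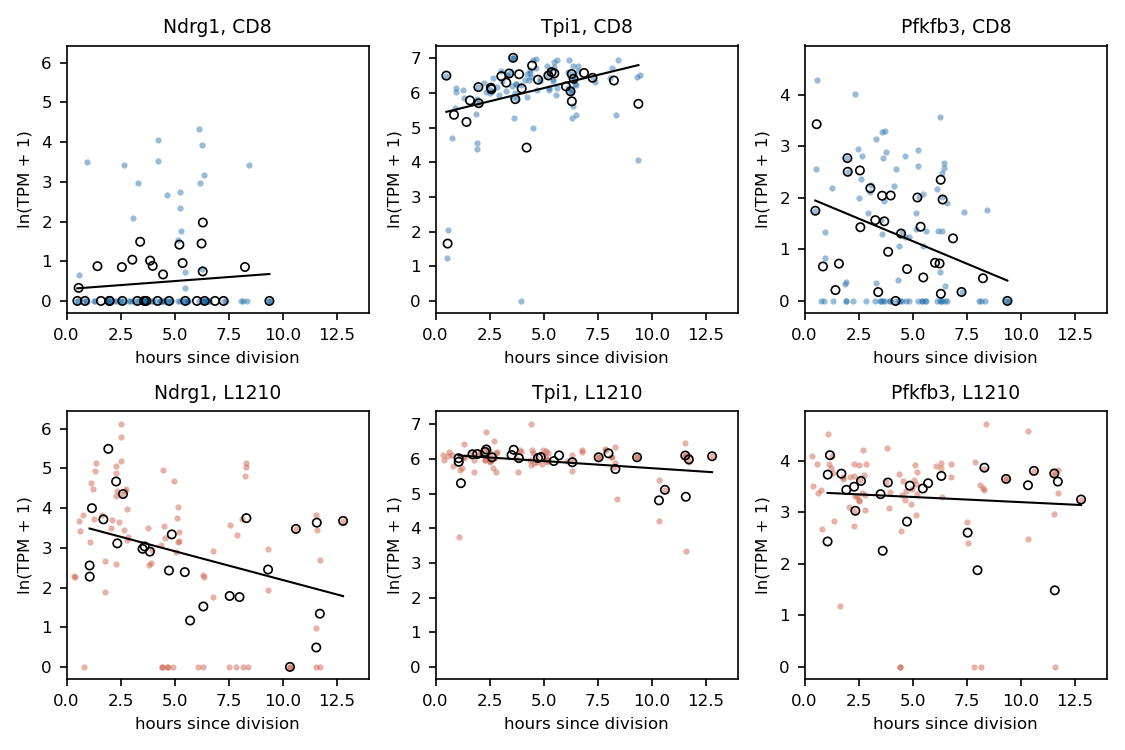
ln(TPM + 1) of Ndrg1, Tpi1 and Pfkfb3 against hours since division in T-cells (top) and L1210 cells (bottom), with cells as coloured points, lineage means as open circles and a least-squares line through the lineage means. The Ndrg1 line slopes down in L1210 cells with lineage means scattered widely around it, and none of the 6 slopes passed the adjusted test.

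Ndrg1 had the L1210 slope furthest from 0, -0.15 ± 0.06 per hour (SE, n = 26 lineages, limma, adjusted p = 0.842). It was above 0 TPM in 36 of 37 cells within 4 h of division (median 39.9, up to 457), in 17 of 26 cells between 4 and 8 h (median 17.3, up to 140) and in 12 of 18 later cells (median 16, up to 170). The cells came from 11, 9 and 9 lineages. Later cells at 0 included L1210_8, L1210_15, L1210_84 and L1210_86, with 1610 to 5125 detected genes, and L1210_12 and L1210_74, with 8682 and 9117. The part of detection in these counts of Ndrg1 was not tested. This gene was known from earlier results of these data to have a negative slope in L1210 cells. Over 15 alternatives its adjusted p lay between 0.379 and 0.912. In T-cells Ndrg1 was above 0 in 3 of 23 cells before 3 h, 11 of 45 between 3 and 6 h and 6 of 26 later, and its slope was 0.04 ± 0.05 (SE, adjusted p = 0.746). The difference of the slopes was -0.19 ± 0.08 (SE, adjusted p = 0.386).

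Tpi1 had the largest positive slope in T-cells, 0.15 ± 0.06 per hour (SE, n = 31 lineages, limma, adjusted p = 0.306), with medians of 404 TPM in 23 cells before 3 h, 596 in 45 cells between 3 and 6 h and 607 in 26 later cells. In L1210 cells its slope was -0.04 ± 0.02 (SE, adjusted p = 0.854), with medians of 424, 424 and 421 TPM before 4 h, between 4 and 8 h and later. Among the earliest T-cells, the sisters CD8_49 and CD8_50, at 0.553 and 0.567 h, had only 2.49 and 6.84 TPM of Tpi1. Rn45s took 38.1 and 39.6% of their TPM, and a slope without them is not given. Pfkfb3 and Slc16a1 had negative slopes in T-cells, -0.17 ± 0.07 and -0.18 ± 0.08 (SE, adjusted p = 0.274 and 0.319). Medians of Pfkfb3 were 4.50, 2.44 and 0.265 TPM over the same intervals, and those of Slc16a1 were 23.7, 7.80 and 10.7 TPM. The Rn45s share also had a slope in T-cells, -1.35 ± 0.51 percentage points per hour (SE), and its part in these values was not tested.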

How the data were processed

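Each library was made from 1 cell by Smart-Seq2. The authors estimated expression with RSEM 1.2.3 against UCSC genes of mm10 and deposited it as TPM, for 23420 gene names, with no log transformation and a sum of 1000000 per library. TPM keep no depth, and read numbers per library were not used here, so low values carry no counting interval. The submitters' processing notes also name bcl2fastq and TopHat2. The genes and lists were chosen with earlier results of these data known.

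Groups, doublets, relatives and hours came from the labels. A lineage was a set of cells joined by sister or cousin labels that named each other, and 3 labels not named back were not used. Values were taken as ln(TPM + 1) (pseudocount 1 TPM), and genes above 1 in over 10% of cells of either type were kept. Lineage means, slopes over hours and per-lineage likeness were tested with limma 3.58.1 in R 4.3.3 (moderated tests with trend, two-sided), with Benjamini-Hochberg adjustment over all genes kept, 9995 for CD8+ T-cells, 10534 for L1210, 11371 for either and 9158 for both. The tests were tested on simulated data. A fold is exp of a difference of lineage means of ln(TPM + 1), and understates the change of low genes. All 33 genes are named, and of 84 further genes the 5 called of lowest adjusted p in each comparison, beside counts. Vhl and Arnt were added after their values were seen. Python 3.11.15, scipy 1.17.1 and pandas 2.3.3 were used for the rest. Alternatives changed the pseudocount, gene filter, minimum of detected genes, scaling, covariates, lineages and test. Leaving out L1210_8 and L1210_15 was chosen after seeing the data. A marker of the B lineage is not reported here, and nothing said of markers rests on it.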

Additional observations from a re-analysis of the deposited data

How the results depend on the processing

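No paired analysis was possible because the numbers in the labels only name cells of each type and tie no T-cell to an L1210 cell. Of the 31 genes tested between the types, 17 to 23 were called under every alternative. The fewest were called when genes had to exceed the threshold in more than 50% of cells, which tests fewer genes. Centring on broadly detected genes moved the median difference of all genes by 0.118, and the covariate of detected genes by 0.272. For likeness in T-cells, 3 genes became 0 with centring and 10 with a moderated F test over cells, which treats cells as the replicates. For likeness in L1210 cells, 0 genes became 1 with a pseudocount of 10 TPM (Ndrg1), 1 with a minimum of 4000 detected genes (Pgam1) and 7 with the F test. The counts over all genes moved as well. In T-cells 226 became 147 with centring. In L1210 cells 31 became 99 with that pseudocount and 217 with that minimum. Counts over all genes for the F test are not given here. The cause was not tested for the pseudocount, the centring and the minimum. For the time slopes, 0 genes passed in either type and for the difference under every alternative run. None of the genes called changed direction. Genes listed at 0 in many cells, such as Hk2, Egln3 and Ankrd37, have the least certain values, since reads per library are not kept in TPM.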
